A study of Homo sapiens with 2 samples.

Results

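Mutually exclusive exons are neighbouring exons of which a transcript carries 1 or the other between the same flanking exons. Exchanging them swaps a stretch of protein while both ends of the protein stay as they are, provided that both exons leave the reading frame in the same position. Well-known examples swap part of a ligand-binding domain, a carrier or a transcription factor between tissues. The exon pairs described here differ in length by a multiple of 3 bases, so that either exon leaves the same frame for the exon that follows. They were chosen by length alone: of 39869 mutually exclusive exon events in the table that the authors deposited, 13806 had exons of unequal length whose difference was a multiple of 3. A further 378 events had exons of equal length, and 25685 were frame-shifting.

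The table came from RNA-seq of polyadenylated RNA in HEK293T, an established human embryonic kidney line. Its 2 libraries were a control without drug and a culture treated with amiloride, a sodium channel blocker used as a diuretic, at 300 µg/mL for 6 h. The authors' program, rMATS, lists an event where exons can be joined in alternative ways. The table numbers its libraries without naming the condition, so per-library reads and inclusion levels were not used, and sequencing depth is not reported. The p-values and differences of the authors' own comparison were not used either. The values below therefore describe which exons were listed as exchangeable, and not how amiloride changed their use. Each condition was sequenced once, without replicates.

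Several events can name the same pair of exons with other flanking exons. The 13806 events held 10483 distinct pairs in 5127 genes, of 30127 distinct pairs of any length class in 7723 genes. A pair appeared in exactly 1 event in 76.2% of cases and in at most 10. Frame-keeping pairs of unequal length made up 34.8% of all distinct pairs (95% Wilson interval 34.3 to 35.3), against 297 pairs of equal length and 19347 frame-shifting pairs. All intervals cover counting error only, and pairs of 1 gene share exons and are not independent. The genes with the most pairs were CDK5RAP1 with 18, ACLY with 16, ABCC1 with 15, and DMKN and LRIG1 with 14 each, while 2661 genes had exactly 1 pair. The first exon of a pair, in the direction of transcription, is called the first exon throughout.

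Pairs of genes known for exchanging exons are shown first. The mitochondrial phosphate carrier SLC25A3 had a first exon of 125 bases (chr12:98989211-98989335) and a second exon of 122 bases (chr12:98989505-98989626) on the plus strand of GRCh37, separated by an intron of 169 bases. Capitals mark the bases that were identical when the exons were aligned over their whole length.
SLC25A3 first exon: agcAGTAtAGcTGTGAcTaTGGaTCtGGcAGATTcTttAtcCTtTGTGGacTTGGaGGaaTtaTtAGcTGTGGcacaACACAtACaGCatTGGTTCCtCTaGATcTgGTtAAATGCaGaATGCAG
SLC25A3 second exon: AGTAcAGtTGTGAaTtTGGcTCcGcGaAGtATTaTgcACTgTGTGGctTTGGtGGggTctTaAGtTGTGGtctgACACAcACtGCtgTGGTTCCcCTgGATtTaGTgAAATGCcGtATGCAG
The identical bases came to 68.0% of the longer exon, and the exons differed in length by 1 codon. Neither exon length is a multiple of 3, so a transcript with both exons or with neither would leave another frame than a transcript with 1 of them.

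In FGFR2, a receptor for fibroblast growth factors, the exons encode alternative second parts of the third immunoglobulin-like domain, which set the growth factors that are bound. Its exons of 148 and 145 bases were identical at 59.5% of the longer exon. The annotation holds 5 transcripts with the first of these exons only, 15 with the second only and 2 with both. The related receptor FGFR3 had exons of 151 and 145 bases, 627 bases apart, with an identity of 51.7%. There 2 transcripts held the first exon only, 3 the second only and 1 both. A pair of FGFR1 exons with 124 and 145 bases was held together by 19 transcripts.

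H2AFY encodes the histone variant macroH2A1, whose large domain binds ADP-ribose derivatives in 1 of its splice forms. Its exons of 100 bases (chr5:134688636-134688735) and 91 bases (chr5:134686513-134686603), on the minus strand, were identical at 49.0% of the longer exon. For scale, pairs of equal length from any gene had a median identity of 54.1% (quartiles 50.3 and 59.3). Of those pairs, 91.9% were held together by a transcript.
H2AFY first exon: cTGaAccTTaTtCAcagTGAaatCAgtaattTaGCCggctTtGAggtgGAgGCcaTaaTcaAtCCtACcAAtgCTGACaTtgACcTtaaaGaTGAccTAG
H2AFY second exon: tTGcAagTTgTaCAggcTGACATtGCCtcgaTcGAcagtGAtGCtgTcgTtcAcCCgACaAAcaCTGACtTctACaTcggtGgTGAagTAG
The exons differed by 9 bases, or 3 codons, and 2032 bases of intron lay between them. FYN, a kinase of the Src family, had exons of 165 bases (chr6:112021307-112021471) and 156 bases (chr6:112020718-112020873), also on the minus strand and also 3 codons apart in length, which encode the link to and the start of the kinase domain. Their identity was 55.8%.
FYN first exon: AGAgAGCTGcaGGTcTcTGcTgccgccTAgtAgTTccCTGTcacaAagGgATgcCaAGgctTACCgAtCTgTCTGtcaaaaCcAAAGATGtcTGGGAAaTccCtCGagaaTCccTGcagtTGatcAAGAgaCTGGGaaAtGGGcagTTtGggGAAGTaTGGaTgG
FYN second exon: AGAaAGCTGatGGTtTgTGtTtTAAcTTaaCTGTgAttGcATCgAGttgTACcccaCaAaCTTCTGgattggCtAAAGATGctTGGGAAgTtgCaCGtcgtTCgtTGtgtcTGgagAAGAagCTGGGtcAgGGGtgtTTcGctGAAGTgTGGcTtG

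The muscle and neuronal transcription factors MEF2A and MEF2C swap exons just behind the domain that binds DNA. Both had a second exon of 138 bases, with a first exon of 132 bases in MEF2A and of 144 bases in MEF2C. Identity between the exons was 55.1% in MEF2A and 62.5% in MEF2C. The intron between them was 65 bases in MEF2A and 59 bases in MEF2C. That of MEF2C (chr5:88056943-88057001, minus strand) is shown with its first and last 2 bases in capitals, because no exons held together by a transcript lay this close to each other.
MEF2C intron: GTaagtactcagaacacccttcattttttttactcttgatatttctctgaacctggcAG
P4HA2, a subunit of the collagen prolyl 4-hydroxylase, had the shortest intron among the pairs of the known genes that were exclusive in the annotation, at 49 bases between exons of 60 and 66 bases. The whole stretch (chr5:131533899-131534073, minus strand) is shown with the exons in capitals.
P4HA2 exons and intron: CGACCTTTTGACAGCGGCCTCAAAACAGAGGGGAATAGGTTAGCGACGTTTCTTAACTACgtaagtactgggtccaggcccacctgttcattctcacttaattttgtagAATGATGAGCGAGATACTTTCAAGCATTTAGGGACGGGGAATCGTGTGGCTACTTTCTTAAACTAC
The exons were identical at 57.6% of the longer exon, and the annotation holds 4 transcripts with the first, 3 with the second and 0 with both.

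**Figure D1:**
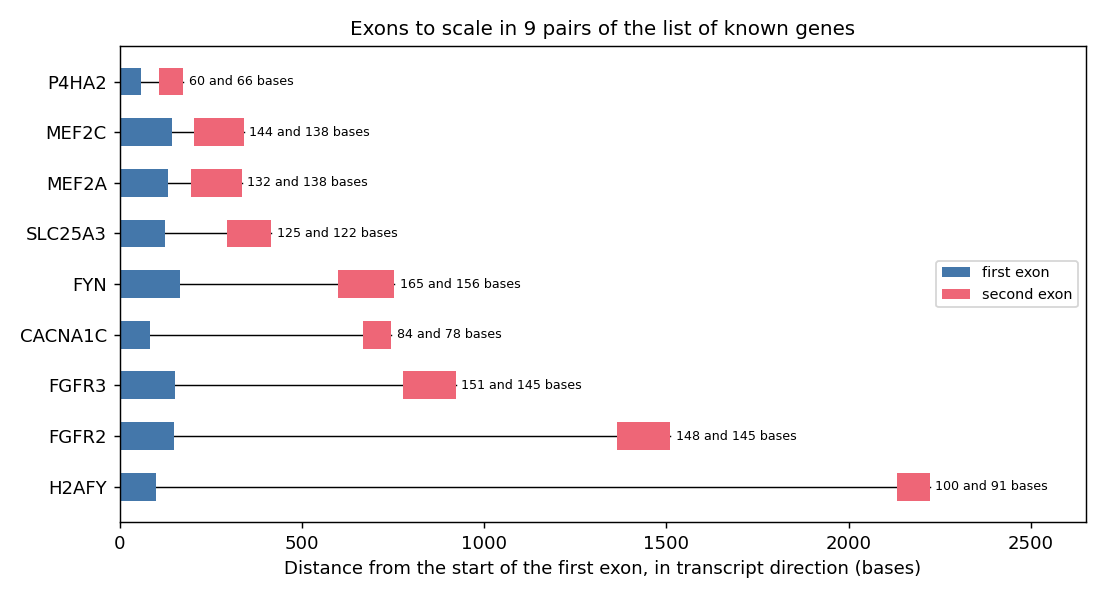
Exons of 9 pairs from the list of known genes, drawn to scale from the start of the first exon (horizontal axis in bases, 1 row per pair, first exon in blue, second exon in red, intron as a line). The intron grows from 49 bases in P4HA2 to 2032 bases in H2AFY, while exon lengths within a pair differ by 3 to 9 bases.

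A list of 47 genes with known alternative or mutually exclusive exons had 28 genes with a frame-keeping pair of unequal length, in 66 pairs. Of these pairs, 58 were held together by at least 1 annotated transcript and 7 were exclusive, which means that annotated transcripts spanning both exons held the first without the second and the second without the first and none held both. The 7 were in CACNA1C, FYN, H2AFY, MEF2A, MEF2C, P4HA2 and SLC25A3. CACNA1C, the pore-forming subunit of a voltage-gated calcium channel, had exons of 84 and 78 bases with an identity of 56.0%, and 17 transcripts held the first exon but 1 the second. Both forms of the exchange, each with the listed flanking splice sites, were annotated for 15 of the 66 pairs in 12 genes, which adds EPB41, FGFR2, FGFR3, ITGA7 and MAPT to these 7. The other genes with a pair included ACTN4, ATP2B1, CACNA1D, CD44, DNM2, FGFR1, HNRNPC, KHK, MAPK8, P4HA1, TCF3, TEAD1, TPM1, TPM3 and U2AF1. EPB41, which encodes a protein of the membrane skeleton with many alternative exons, had the most, at 9 pairs.

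Over all frame-keeping pairs of unequal length, the exons differed by a median of 45 bases, or 15 codons (quartiles 21 and 78 bases). With every gene weighing the same, the mean over genes of each gene's median was 81.6 bases, a mean that large differences raise more than a median. A difference of 1 codon was found in 441 pairs, 2 codons in 403 and 3 codons in 426, and 36.7% of pairs differed by at most 30 bases. For scale, 388 pairs differed by 2 bases and 373 by 4 bases, which are frame-shifting. The first 3 pairs with a difference of 1 codon and both exons coding, in order of position, were in MIB2 (108 and 105 bases), LZIC (99 and 96 bases) and KIF1B (76 and 79 bases). At the other end, exons of very unequal size were listed as alternatives in ARHGAP5 (3885 and 78 bases), QSER1 (162 and 3693 bases) and TET2 (146 and 3455 bases). The first exon was the longer one in 49.3% of pairs (48.3 to 50.2), with median lengths of 112 bases for first and 113 for second exons.

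**Figure D2:**
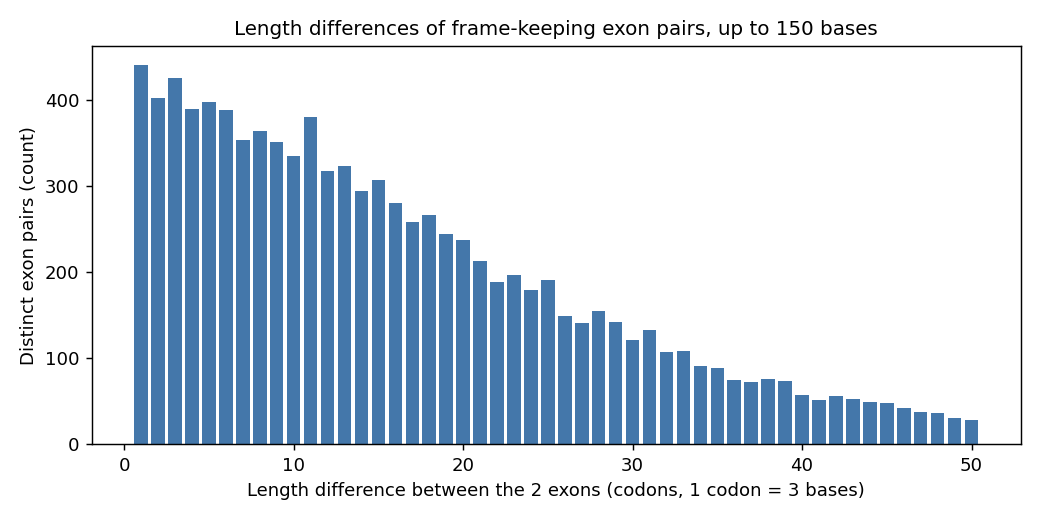
Number of distinct pairs (vertical axis, count) by length difference in codons (horizontal axis), for differences up to 150 bases. The count falls from 441 pairs at 1 codon to 307 pairs at 15 codons.

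Unequal length enters the authors' inclusion levels through the effective length, by which rMATS divides the reads of each form. In 39869 of 39869 events of any class the effective length of a form equalled the length of its exon plus 125 bases, as reads of 126 bases would give. The exon that comes first in the transcript was the inclusion form. For the frame-keeping events of unequal length the longer effective length was 1.20 times the shorter at the median (quartiles 1.09 and 1.38), and it ranged from 1.01 to 19.8 times.

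Annotated use of the pairs was read from GENCODE release 44. Both exons were annotated with exactly these ends in 99.3% of pairs. At least 1 annotated transcript held both exons in 98.1% of pairs (97.8 to 98.3), the canonical transcript of a gene held both in 91.6%, and they were direct neighbours in a transcript in 73.5%. Frame-shifting pairs had 98.4%, 91.7% and 73.3% in that order, and pairs of equal length 91.9%, 83.5% and 72.1%. Only 119 pairs in 102 genes, or 1.14% (0.950 to 1.36), were exclusive in the annotation. The share was 0.868% (0.747 to 1.01) among frame-shifting pairs and 7.41% (4.94 to 10.96) among pairs of equal length. These shares describe annotated transcripts and not the transcripts of HEK293T cells.

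In the skipped-exon table of the same libraries, both exons of a pair were also listed as skipped exons in 97.8% of pairs (97.5 to 98.1). In 91.7% of pairs an event of that table had 1 exon of the pair as its skipped exon and the other as its flanking exon, so that a form with both was listed. The corresponding shares were 98.2% and 92.6% among frame-shifting pairs, and 94.3% and 81.8% among pairs of equal length. Among the 119 exclusive pairs a form with both exons was listed for 4, or 3.36% (1.31 to 8.32), although both exons were listed as skipped in 78.2% (69.9 to 84.6). Events can be drawn from annotated transcripts, which also define the exclusive pairs. The 3.36% is therefore not independent of that definition.

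**Figure D3:**
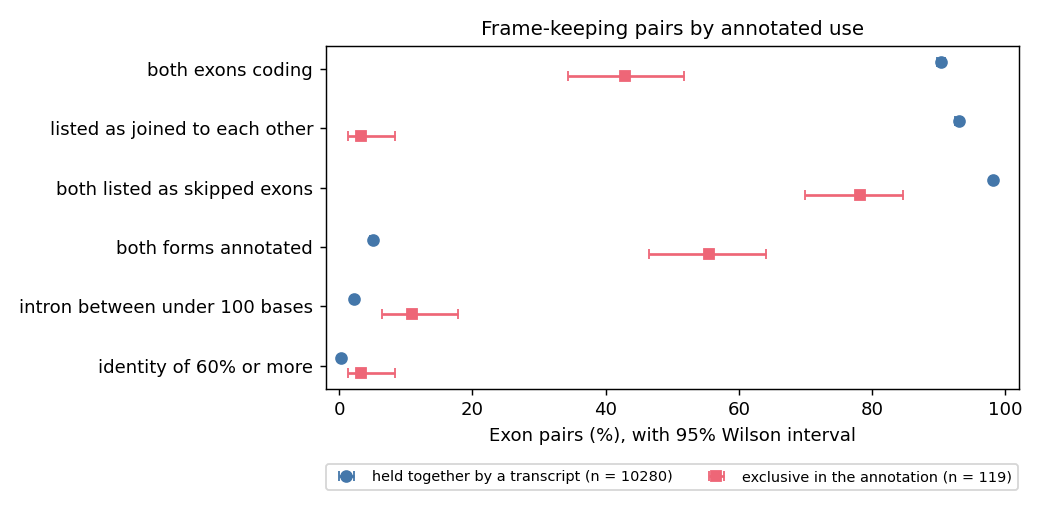
Share of frame-keeping pairs in percent (horizontal axis, bars are 95% Wilson intervals) for 6 properties (vertical axis), in pairs held together by a transcript (blue circles, n = 10280) and exclusive pairs (red squares, n = 119). A form with both exons was listed for 93.0% of the former and 3.36% of the latter. Annotated transcripts define both groups and can enter the listing of events, so this contrast is not independent of the grouping.

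The length rule asks that both exons of a pair leave the same remainder after division by 3, without saying which. Keeping only matching remainders can raise the share of the remainder that is most common among exons. The shares below are therefore not independent of the rule. Both exons were a multiple of 3 bases in 47.8% of pairs (46.8 to 48.7), both left a remainder of 1 base in 26.4% and both a remainder of 2 bases in 25.8%. With a remainder of 0 each exon can also be skipped or included without a change of frame. With a remainder of 1 or 2 the forms share a frame with each other but not with a transcript that holds both exons. Of the 10280 pairs held together by a transcript, 2713 had a remainder of 1 and 2638 a remainder of 2.

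Reading the exons in the frame that the upstream flanking exon leaves, which could be done for the 9565 pairs where that exon is coding, showed what the exchange would encode. Neither exon held an in-frame stop codon in 82.0% of pairs with a remainder of 0 (80.9 to 83.1, 4659 pairs), but in 27.9% of pairs with a remainder of 1 or 2 (26.7 to 29.2, 4906 pairs). In the latter, the stop lay in the second exon only in 59.6% of pairs and in the first exon only in 7.05%. Over all remainders, 45.7% of pairs (44.7 to 46.7) had a stop in at least 1 exon, against 58.7% of frame-shifting pairs (58.0 to 59.5) and 33.2% of pairs of equal length (28.0 to 38.9). These classes differ in their remainders: both lengths were a multiple of 3 in 47.8%, 0% and 58.6% of their pairs, in that order. The 0% follows from the definition of frame-shifting pairs. Of the frame-keeping pairs with a remainder of 1 or 2, 3535 of 4906 had a stop. Among all frame-shifting pairs 10252 of 17453 had a stop. These sets are not matched, because a frame-shifting pair can hold an exon that is a multiple of 3, so their shares cannot be compared directly. Exons are not replicates, and these shares are descriptions without a test.

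ACTN4, an actin cross-linking actinin, shows such a pair. Its exons of 151 and 109 bases, each with a remainder of 1, were held together by 5 transcripts, and 0 transcripts that span both held 1 alone. Joined directly to the upstream exon, which leaves 1 base of an unfinished codon, the second exon (chr19:39214254-39214362, plus strand) meets a stop codon, in capitals, at its base 81.
ACTN4 second exon: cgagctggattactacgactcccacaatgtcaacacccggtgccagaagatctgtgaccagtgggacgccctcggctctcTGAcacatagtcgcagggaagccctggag
In the same way the second exon held a stop in pairs of DNM2 (161 and 143 bases), a dynamin of endocytosis, of TCF3 (124 and 136 bases), a helix-loop-helix transcription factor, and of TPM1 (70 and 79 bases), a tropomyosin. It held none in the pairs of SLC25A3, FGFR2, FGFR3, H2AFY and FGFR1 with 1 or 2 as the remainder that are printed or described above. The FGFR1 pair was held together by transcripts. So were other pairs of DNM2 (68 and 71 bases, remainder 2) and TCF3 (73 and 133 bases, remainder 1), and neither exon of these held a stop.

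**Figure D4:**
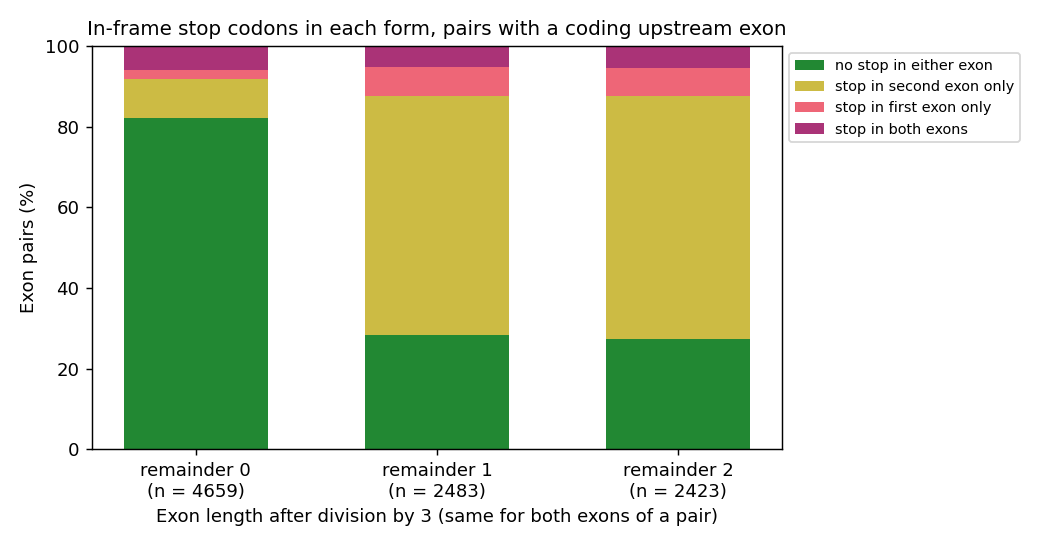
Share of pairs in percent (vertical axis) without a stop, or with a stop in the second, the first or both exons, by the remainder of exon length after division by 3 (horizontal axis, number of pairs below each bar). Pairs without a stop make up 82.0%, 28.4% and 27.4% at remainders 0, 1 and 2.

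Among the exclusive pairs, neither exon held a stop in 24 of 44 pairs with a remainder of 0, or 54.5% (40.1 to 68.3), and in 23 of 42 pairs with a remainder of 1 or 2, or 54.8% (39.9 to 68.8). Both exons were coding in 42.9% of exclusive pairs, against 90.4% of pairs held together by a transcript.

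A set of 30 pairs in 28 genes met 4 conditions together, which were chosen after the values were seen: exclusive in the annotation, both forms annotated, both exons coding, and no in-frame stop in either exon. Besides the 7 pairs of known genes, it held transporters and channels: SLC7A2, a carrier of cationic amino acids (140 and 137 bases), and CACNB1, a subunit of calcium channels (155 and 20 bases). Enzymes of the set were OGDH of the citric acid cycle (91 and 103 bases, 122 bases apart), the arginine methyltransferase PRMT5 (86 and 89 bases), the glucosyltransferase ALG5 (69 and 72 bases), the kinase CAMK2G (33 and 27 bases), the ubiquitin-conjugating enzyme UBE2C (151 and 205 bases), the ubiquitin ligase CHFR (2 pairs) and the helicase MCM8 (31 and 151 bases). COL25A1, a collagen, had 2 pairs (87 and 78 bases, 60 and 72 bases), and CD55, which protects cells from complement, had exons of 118 and 115 bases. Proteins of the cytoskeleton and its signals included WASF3 (176 and 167 bases), PDLIM3 (188 and 68 bases) and GIT2 (105 and 249 bases). Further pairs were in PPP2R5C, a subunit of protein phosphatase 2A (166 and 94 bases), RTN3, a reticulon (57 and 2052 bases), PHF21A (23 and 164 bases), C2CD5 (125 and 152 bases), ERMARD (78 and 219 bases) and GPATCH2L (40 and 55 bases). Annotated support was uneven: ALG5 had 22 transcripts with the first exon only and 1 with the second only, PRMT5 10 and 3, and MEF2C 16 and 8.

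The median length difference of the 30 pairs was 12 bases, and 16 of 30 differed by at most 12 bases, or 53.3% (36.1 to 69.8), against 15.7% of pairs held together by a transcript (15.03 to 16.4). The exon lengths of 15 of the 30 were a multiple of 3. A form with both exons was listed in the skipped-exon table for 0 of 30, which allows a share of up to 11.4% by the Wilson interval. The 30 were chosen as exclusive in the annotation, so this count is not independent of the choice. All 30 had passed the length rule, and the conditions on coding and stops can favour short exons and small differences, so these lengths are not independent of the choice and no test was made on them.

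The intron between the exons had a median of 3239 bases (quartiles 1160 and 8086), close to the 3199 bases of frame-shifting pairs. It was shorter than 100 bases in 2.38% of pairs (2.11 to 2.69), in 10.9% of exclusive pairs (6.50 to 17.8) and in 23.3% of the 30 pairs (11.8 to 40.9). The shortest intron between exons held together by a transcript was 67 bases. Of the 11 pairs with fewer than 60 bases between them, 9 were exclusive and 0 were held together. The shortest were in UBE2C and ALG13 with 0 bases, APTX with 28, MTHFSD with 32 and DBI with 35.

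In UBE2C, which acts with the anaphase-promoting complex, and in ALG13, which acts in protein glycosylation, the first exon ends where the second begins. The 40 bases around that boundary, 20 from each exon (UBE2C chr20:44444160-44444199 and ALG13 chrX:110925444-110925483, both plus strand), show in capitals the last 2 bases of the first exon, AG, and the first 2 bases of the second exon, GT.
UBE2C boundary: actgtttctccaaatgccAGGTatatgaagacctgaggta
ALG13 boundary: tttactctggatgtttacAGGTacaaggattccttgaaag
The AG can serve as the 3'SS of the second exon and the GT as the 5'SS of the first, so that the sites of both exons overlap. In ALG13 the second exon of 59 bases held 1 in-frame stop, and in UBE2C neither exon held one.

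Identity between the exons was low for most pairs, with a median of 42.2% of the longer exon (quartiles 34.9 and 47.3), near the 42.5% of frame-shifting pairs and below the 54.1% of pairs of equal length. It reached 60% in 35 pairs, or 0.334% (0.240 to 0.464), against 0.140% of frame-shifting pairs (0.0959 to 0.203) and 21.9% of pairs of equal length (17.6 to 26.9). Identity was counted over the longer exon, so it cannot exceed the shorter length as a share of the longer. The longer exon was 1.5 times the shorter at the median, against 1.49 in frame-shifting pairs and 1 at equal length. The contrast with pairs of equal length is therefore in part set by the length rule. High values were found in FLYWCH1 (80.6%), HMOX2 (77.7%), TCOF1 (77.5%), PTOV1 (75%), SENP7 (72.2%), SLC3A2 (71.9%), ZNF761 (71.5%), CD99L2 (71.4%) and SLC25A3 (68.0%). TCOF1, a nucleolar protein with repeated segments, holds both exons in the same transcript, as did 30 of the 35 pairs. The 4 exclusive pairs were in SLC3A2, SLC25A3, MEF2C and SLC7A2, of which SLC3A2 also had a pair held together by a transcript.

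**Figure D5:**
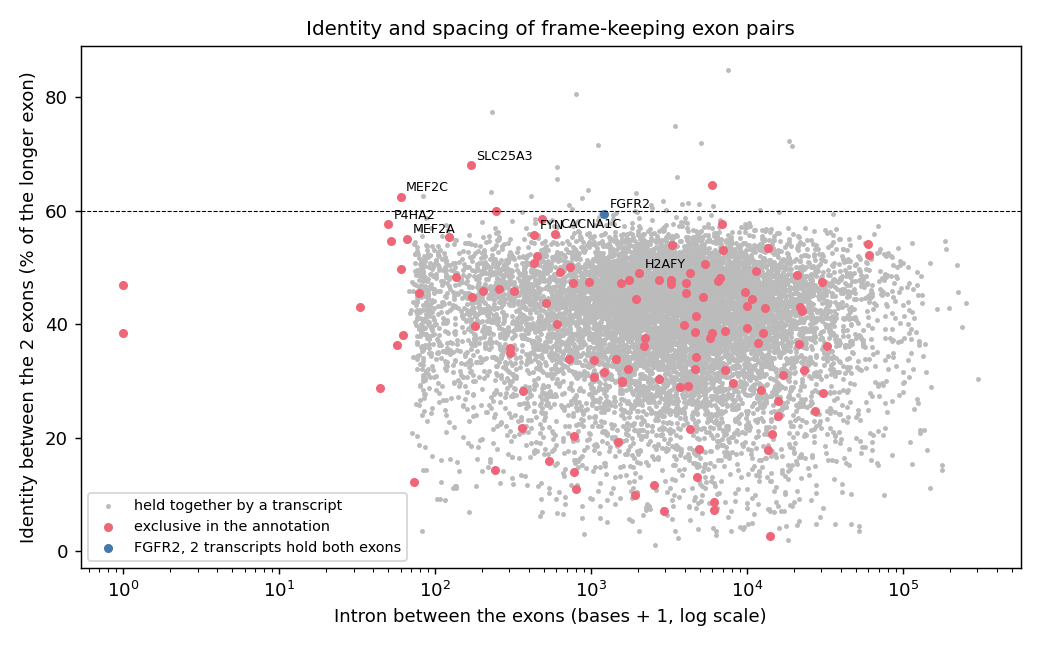
Identity between the exons in percent of the longer exon (vertical axis, dashed line at 60%) by the length of the intron between them plus 1 base (horizontal axis, log scale), for pairs held together by a transcript (grey) and exclusive pairs (red), with FGFR2 in blue. MEF2A, MEF2C and P4HA2, with introns of 65, 59 and 49 bases, lie left of the grey points, which begin at 67 bases.

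The splice sites of first and second exons had similar motif scores, where a higher score means a closer match to annotated human splice sites. The median 5'SS score was 8.23 for first exons and 8.09 for second exons, and the median difference within a pair, first minus second, was 0.186 (95% interval of the median 0.104 to 0.255). Frame-shifting pairs had nearly the same difference, at 0.175 (0.118 to 0.229). The median 3'SS score was 9.46 for both, with a difference of -0.031 (-0.142 to 0.0713). In exclusive pairs the median 5'SS score was 8.10 for first and 7.11 for second exons, and the median 3'SS score 8.59 and 8.13. Pairs held together by a transcript had 8.24, 8.10, 9.49 and 9.48 in that order. The intervals of the medians in exclusive pairs were 7.28 to 8.74, 6.78 to 7.86, 7.64 to 9.22 and 7.43 to 8.64. The interval for the 5'SS of first exons thus included the 8.24. In SLC25A3 both exons had the same 5'SS score of 6.35, while the 3'SS score was 8.15 for the first and 11.68 for the second. FGFR2 (8.43 and 12.36) and P4HA2 (6.26 and 9.09) also had the higher 3'SS score at the second exon, and H2AFY (12.19 and 8.26) at the first.

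Motifs of splicing regulators were searched between the exons. TGCATG, the motif of RBFOX proteins, was sought on the strand that matches the transcript, within 150 bases of either end of the intron. It occurred in 8.31% of pairs (7.80 to 8.85), against 8.35% of all 30127 pairs. CTCTCT or TTCTCT, motifs bound by PTBP1 that can overlap each other, occurred in 33.1% against 32.9%. In the exclusive pairs TGCATG occurred in 13.4% (8.45 to 20.7), among them FYN, SLC25A3 and CAMK2G, and the PTBP1 motifs in 29.4% (21.97 to 38.1). A 5'SS of the minor spliceosome, ATATCCTT or GTATCCTT at the start of the intron, was found in 2 pairs, or 0.019%. Among all 30127 pairs it was found in 8, or 0.027%. A match of letters is a description and not evidence of binding.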

How the data were processed

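RNA-seq tables for 1 control and 1 amiloride library of HEK293T cells were used. Per the submitters' processing notes, reads were aligned with STAR 2.5.1 to hg19/GRCh37; the rMATS version is not given in the sources used here. From the tables the authors deposited, only exon positions and effective lengths (in bases) were read. Over the 5 tables, 30 columns of reads or inclusion levels number the libraries without naming them and were not used. Columns with the authors' p-value, FDR and inclusion level difference hold their own comparison and were not used. Tables of alternative splice sites and retained introns were not used.

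Events were collapsed to distinct pairs by chromosome, strand and both exons. Positions are 1-based on GRCh37, and 98.4% of pairs had AG and GT beside both exons. Annotation was GENCODE release 44 lifted to GRCh37. Splice sites were scored over 9 bases (5'SS) and 23 bases (3'SS) as a sum of log2 ratios, against equal frequencies, of the bases at GENCODE sites: 300873 5'SS with GT and 300290 3'SS with AG (pseudocount 0.5). Exons of up to 3000 bases were aligned globally (match 2, mismatch -1, gap opening -4, gap extension -1), which left out 6 pairs. Frames were taken from the most frequent annotated frame at the end of the upstream exon. Shares have 95% Wilson intervals, and medians have order-statistic intervals. The measures were checked on simulated sequences.

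Pairs were named by rule: genes of the known list, the 10 highest identities, the 5 genes with most pairs, the 5 shortest introns, and the ends of the length difference. Some items that these rules select are not reported here. The set of 30 exclusive coding pairs was chosen after seeing the data. Members and lists were chosen with earlier results of these data known. Alternatives were events in place of pairs, AG and GT only, equal weight per gene, other thresholds of identity, intron length and overlap, and protein coding transcripts only. Software was biopython 1.88, pysam 0.24.0, matplotlib 3.10.9, pandas 2.3.3 and numpy 2.4.6 under Python 3.11.15.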

Additional observations from a re-analysis of the deposited data

How the results depend on the processing

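Most values stayed within the 95% interval of the value over distinct pairs. Counting events moved the share with an in-frame stop from 45.7% to 47.4% and the share listed as skipped exons from 97.8% to 98.1%. With every gene weighing the same, the frame-keeping share moved from 34.8% to 35.3%, both lengths a multiple of 3 from 47.8% to 45.8%, an in-frame stop to 47.0%, the skipped-exon share to 97.4%, the 5'SS score difference from 0.186 to 0.269, and the length difference from a median of 45 bases to 81.6 bases, which is a mean of medians per gene. The 3'SS score difference changed sign to 0.039, within its interval. In protein coding transcripts only, 95.4% of pairs were held together, down from 98.1%. Stricter or looser thresholds moved by construction: identity of at least 50% or 70% gave 14.4% and 0.0859%, and introns under 60 or 200 bases gave 0.105% and 5.90%. With AG and GT beside both exons, no value left its interval. No paired analysis was possible because the comparison rests on 1 control and 1 amiloride library, which also leaves no replicate to leave out. A test of amiloride against control was not run, since the columns do not name the library, and depth was not used.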
